A study of Homo sapiens with 75 samples.

Results

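The 10 genes described here, EGR1, EGR2, EGR3, FOS, FOSB, JUN, JUNB, IER2, NR4A1 and NR4A3, were taken by their gene identifiers, 1 row each, out of 19536 gene rows. In the files the EGR genes are the rows ENSG00000120738_at (EGR1, chr5:138465479-138469303), ENSG00000122877_at (EGR2, chr10:62811996-62819167) and ENSG00000179388_at (EGR3, on chromosome 8). The AP-1 genes are ENSG00000170345_at (FOS, chr14:75278828-75282230), ENSG00000125740_at (FOSB, chr19:45467996-45475179), ENSG00000177606_at (JUN, chr1:58780791-58784047) and ENSG00000171223_at (JUNB, chr19:12791486-12793315). The others are ENSG00000160888_at (IER2, chr19:13150411-13154911), ENSG00000123358_at (NR4A1, chr12:52022832-52059503) and ENSG00000119508_at (NR4A3, chr9:99821885-99866891), with positions of the whole genes in the RefSeq annotation of GRCh38.p14. They are immediate early genes, whose transcripts appear within minutes of a signal. They were measured in 5 human lines of diffuse large B-cell lymphoma, which arises from mature B cells. Each of the lines DHL4, DHL6, LY7, HBL1 and U2932 was cultured with R406 for 6 or 24 h, with the vehicle DMSO for 6 or 24 h, and was also sampled in DMSO at 0 h. R406 inhibits SYK, the kinase next to the B-cell receptor, and the sources used here do not give its dose. Each of these 25 groups had 3 arrays, lettered A to C, which gave 75 arrays. Whether the letters stand for separate cultures is not stated, so the spread behind the p-values is that between these samples and may be technical. By common usage, which the labels do not give, HBL1 and U2932 are activated B-cell type lines and the other 3 are germinal centre type. The markers of B cells could not be checked because the files hold no gene names.

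Immediate early genes are switched on without new protein synthesis, mostly by factors already bound at their promoters, such as SRF with its partners of the ETS family. In B cells the receptor passes its signal through SYK to calcium and to the kinase ERK, and ERK activates those factors. EGR1, EGR2 and EGR3 encode zinc-finger factors. FOS and FOSB encode partners of JUN and JUNB in the dimeric factor AP-1. IER2 encodes a nuclear protein of the early response, and NR4A1 and NR4A3 encode orphan nuclear receptors, of which NR4A1 is widely used in mice as a reporter of antigen receptor signalling.

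The start regions of EGR1, EGR2 and JUN are shown because EGR1 and EGR2 had among the largest R406 responses of the 10 genes, and because JUN had the one variant AP-1 motif among them. The sequences are from RefSeq, build GRCh38.p14, each 300 bases long and written 5′ to 3′ along the gene. The table held 12 windows for 9 of the 10 genes and none for EGR3. Capitals mark the CArG box, the binding motif of SRF, in the EGR genes, and TGACNTCA, an AP-1 and CREB type motif, in JUN. EGR1 lies at chr5:138465229-138465528 on the plus strand, EGR2 at chr10:62816317-62816616 on the minus strand, in the window of 1 of its 3 start sites, and JUN at chr1:58783998-58784297 on the minus strand.
EGR1: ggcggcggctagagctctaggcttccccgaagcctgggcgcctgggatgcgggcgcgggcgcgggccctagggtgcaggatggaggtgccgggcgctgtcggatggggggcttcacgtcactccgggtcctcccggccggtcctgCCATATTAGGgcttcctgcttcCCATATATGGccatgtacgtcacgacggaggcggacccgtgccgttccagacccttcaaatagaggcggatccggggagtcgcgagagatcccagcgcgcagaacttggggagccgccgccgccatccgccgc
EGR2: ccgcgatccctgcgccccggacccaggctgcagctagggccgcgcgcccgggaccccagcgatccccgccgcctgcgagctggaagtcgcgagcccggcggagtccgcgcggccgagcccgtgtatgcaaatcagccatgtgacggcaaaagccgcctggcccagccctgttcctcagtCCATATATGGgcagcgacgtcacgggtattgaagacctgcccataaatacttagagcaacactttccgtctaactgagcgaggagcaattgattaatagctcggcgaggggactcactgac
JUN: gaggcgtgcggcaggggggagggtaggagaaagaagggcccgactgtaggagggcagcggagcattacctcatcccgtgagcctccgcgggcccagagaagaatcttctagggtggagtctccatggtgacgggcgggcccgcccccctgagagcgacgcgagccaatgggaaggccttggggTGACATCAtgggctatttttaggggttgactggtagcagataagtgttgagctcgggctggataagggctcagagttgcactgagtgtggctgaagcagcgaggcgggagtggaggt
EGR1 had 2 CArG boxes, CCATATTAGG and CCATATATGG, whose first bases lay 105 and 83 bases before the start. EGR2 had 1, CCATATATGG, 71 bases before the start. A CArG box on either strand was present in 2 of the 12 windows, those of EGR1 and EGR2 shown here, and in 1.29% of all 35116 windows in the table. None was in the windows of FOS, FOSB, JUN, JUNB, IER2, NR4A1 or NR4A3. JUN had TGACATCA 67 bases before its start, and TGACNTCA, which includes TGACGTCA, was present in 7.72% of all windows. TGACGTCA and TGANTCA were in none of the 12 windows, against 1.85% and 7.71% of all windows. GCGNGGGCG, an EGR type motif, was in 1 window of EGR1 and 1 of EGR2, against 9.43% of all. These matches describe letters in these windows and were not tested for use in the cells.

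Levels are given on the log2 scale of the deposited RMA values, where a step of 1 is a factor of 2. Changes were tested with limma, with 1 mean per group over all 75 arrays, with Benjamini-Hochberg adjustment of p over the 11767 genes kept by a filter. A gene was kept where its highest group mean lay above 5.88, the median of all values, and called changed at an adjusted p under 0.05. All 10 genes were kept. FOS, FOSB and NR4A3 were above that level in 2 of the 25 groups only, HBL1 and DHL6 in DMSO at 0 h, so a difference between groups was built into their passing. EGR2 was above it in 9 groups, all of them in DMSO. EGR1 and EGR3 were above it in 9 and 10 groups, mostly in DMSO. A lower level in R406 was thus in part built into the passing of the EGR genes as well. Arrays of a group correlated at 0.991 to 0.998, and arrays of different lines at no more than 0.911. The highest residual spread was that of U2932 DMSO replicate A at 6 h, at 0.164. The arrays' number limits the precision, since no molecules are counted. Measures of RNA quality also moved with R406. The difference between the 3′ and 5′ probe sets of beta-actin changed by -0.01 to 0.39 at 6 h and by 0.10 to 0.45 at 24 h. The 5′ probe set of 28S ribosomal RNA changed by -1.12 and -1.54 in LY7 at 6 and 24 h and by 0.19 to 1.91 in the other lines. The part of these measures in the results below was not tested.

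Before treatment the EGR genes were high in HBL1, lower in DHL6, lower again in U2932 and lowest in DHL4 and LY7. EGR2 measured 12.43, 12.45 and 12.48 in HBL1 at 0 h, 10.61, 10.59 and 10.55 in DHL6, and 7.82, 7.62 and 7.70 in U2932. In LY7 it measured 3.31, 3.29 and 3.68 and in DHL4 3.08, 3.53 and 3.36. The first 3 lines did not overlap each other or the last pair, which overlapped. The steps down that order were 1.87 (adjusted p = 4.31e-14), 2.87 (adjusted p = 2.41e-21) and 4.28 (adjusted p = 3.37e-29), and LY7 and DHL4 did not differ beyond their spread (0.10, adjusted p = 0.625). EGR3 had the order HBL1 (12.73 ± 0.064), DHL6 (10.18 ± 0.17), U2932 (8.13 ± 0.23), DHL4 (5.30 ± 0.071) and LY7 (4.86 ± 0.11) (SD, n = 3 each), and each neighbouring pair differed (largest adjusted p = 0.00252). EGR1 had the same order, at 11.38 ± 0.040, 9.48 ± 0.086, 5.91 ± 0.023, 5.48 ± 0.11 and 5.00 ± 0.11 (SD, n = 3 each), and again each neighbouring pair differed (largest adjusted p = 1.39e-05).

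The AP-1 genes differed in which line was highest at 0 h. FOS and FOSB passed the filter through DHL6 and HBL1 at 0 h alone, so their high place there is in part fixed by it. FOS was highest in DHL6 (7.96 ± 0.19), ahead of HBL1 (6.83 ± 0.10) by 1.13 (adjusted p = 7.10e-09). It was lowest in LY7 (4.56 ± 0.14), and DHL4 (5.27 ± 0.41) and U2932 (5.22 ± 0.076) did not differ beyond their spread (adjusted p = 0.794, SD, n = 3 each). FOSB was highest in HBL1 (6.26 ± 0.12) and DHL6 (6.20 ± 0.12), which did not differ beyond their spread (adjusted p = 0.634). It was then 5.71 ± 0.049 in DHL4, 5.44 ± 0.099 in U2932 and 5.38 ± 0.14 in LY7, the last pair again within their spread (adjusted p = 0.580, SD, n = 3 each). JUN was highest in HBL1 (8.82 ± 0.040), 2.07 above DHL6 (6.75 ± 0.10, adjusted p = 2.09e-30). The remaining lines lay at 6.01 ± 0.057 in DHL4, 5.92 ± 0.14 in LY7 and 5.75 ± 0.027 in U2932, where neither neighbouring pair passed the test (adjusted p = 0.369 and 0.0635, SD, n = 3 each). JUNB stood apart in HBL1 alone, at 8.53 ± 0.13 (SD, n = 3), 1.89 above DHL4 (6.64 ± 0.076, adjusted p = 1.44e-28). Below it DHL4, U2932 (6.59 ± 0.021), LY7 (6.41 ± 0.099) and DHL6 (6.36 ± 0.092) formed a row in which no neighbouring pair passed the test (lowest adjusted p = 0.0520).

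IER2 measured 11.38 ± 0.041 in HBL1, 10.76 ± 0.029 in DHL6, 9.70 ± 0.031 in DHL4, 9.62 ± 0.074 in LY7 and 9.33 ± 0.080 in U2932 (SD, n = 3 each), and of the neighbouring pairs only DHL4 and LY7 did not pass the test (adjusted p = 0.210). NR4A1 was highest in DHL6 (7.59 ± 0.11) and lowest in LY7 (6.65 ± 0.11). DHL4 (7.05 ± 0.10), HBL1 (7.03 ± 0.12) and U2932 (7.02 ± 0.10) lay between and did not differ beyond their spread (adjusted p = 0.853 and 0.903, SD, n = 3 each). NR4A3 followed the EGR order, at 7.51 ± 0.089 in HBL1, 7.01 ± 0.14 in DHL6 and 5.20 ± 0.087 in U2932, and at 4.26 ± 0.12 in LY7 and 4.17 ± 0.073 in DHL4, which did not differ beyond their spread (adjusted p = 0.353, SD, n = 3 each). NR4A3 passed the filter through HBL1 and DHL6 at 0 h alone, so its high place in these lines is in part fixed by it. In bulk RNA, fewer cells carrying a transcript and less of it per cell cannot be told apart.

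**Figure D1:**
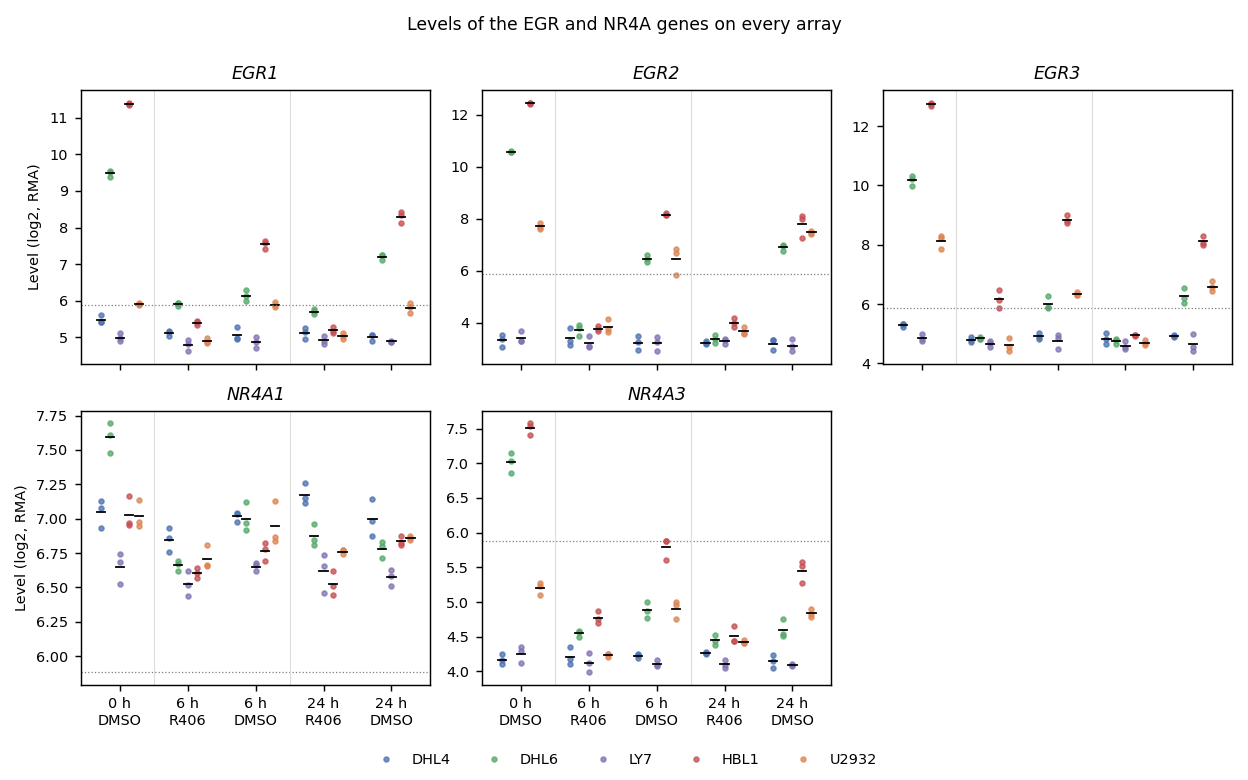
Levels of EGR1, EGR2, EGR3, NR4A1 and NR4A3 (log2, RMA) on every array, with the time and treatment on the horizontal axis, coloured by line, a bar at each group mean and a dotted line at the filter level of 5.88. EGR2 in R406 lies between 3.21 and 4.00 in the means of all 5 lines, while in DMSO its means reach 8.16 at 6 h and 7.79 at 24 h.

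Each R406 group was set against the DMSO group of its line and time, and no array is shared between the 10 such comparisons. Genes of this group fell in every line and none rose at 6 h. Over the 5 lines, 27 of 50 pairs of gene and line were called lower at 6 h and 0 higher by limma (0 also at an unadjusted p under 0.05), where 18.1% of all such pairs of the genes tested were lower and 19.9% higher. At 24 h, 23 were called lower and 5 higher, where 29.7% of all pairs were lower and 24.1% higher, so the share of lower pairs was closer to that of all genes. At 6 h the called genes numbered 7 lower in HBL1 (11.1% of all genes), 7 in U2932 (10.5%), 6 in DHL6 (19.8%), 5 in DHL4 (26.7%) and 2 in LY7 (22.4%). At 24 h there were 8 lower in HBL1 (22.2%), 5 in DHL6 (35.5%), 4 in U2932 (20.5%), 3 in DHL4 (38%) and 3 in LY7 (32.5%), and 1 higher in DHL6 (25.2%), 2 in U2932 (16.1%), 1 in DHL4 (31.2%) and 1 in LY7 (26.7%). The counts in LY7 and in DHL4 at 24 h were thus near the share of all genes. The median change of the 10 genes was -0.98 in HBL1 at 6 h and -1.11 at 24 h, where the median of all genes was 0.02 and -0.01. In the other lines it lay between -0.33 and 0.07, against -0.04 to 0.01 for all genes.

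**Figure D2:**
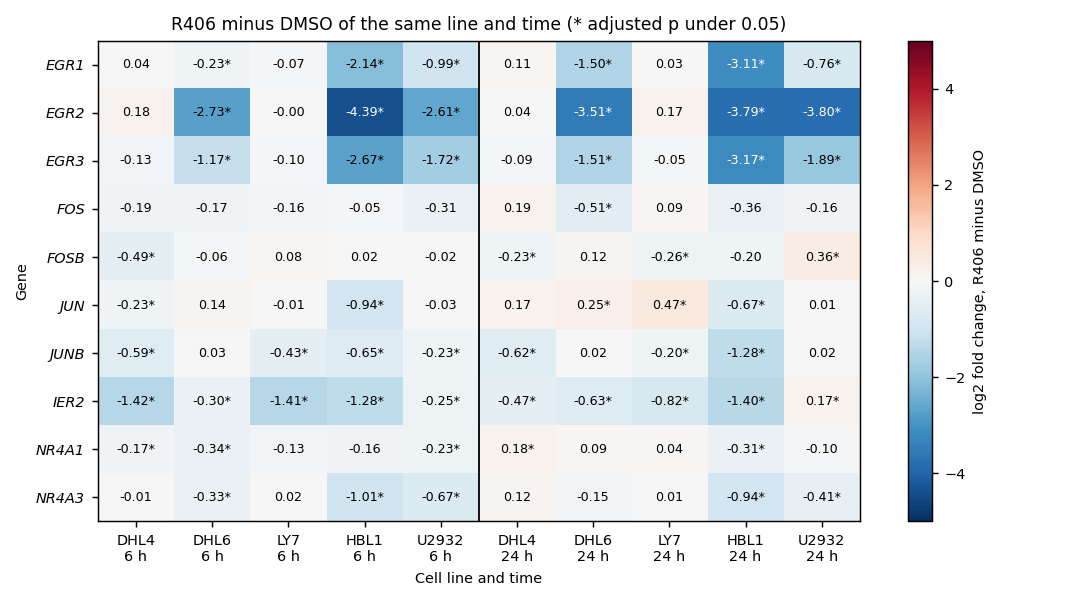
The log2 change of each gene, R406 minus DMSO of the same line and time, by colour and number, with genes in rows and lines in columns at 6 h on the left and 24 h on the right. Asterisks mark an adjusted p under 0.05. The EGR rows are below 0 in HBL1, DHL6 and U2932. They range there from -4.39 (EGR2, HBL1 at 6 h) to -0.23 (EGR1, DHL6 at 6 h). The EGR rows are near 0 in DHL4 and LY7, while IER2 is lower in DHL4 and LY7 as well.

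The EGR genes fell in HBL1, DHL6 and U2932 and did not pass the test in DHL4 or LY7. EGR2, which encodes a factor of the EGR family also active in T-cell tolerance, had the lowest average change of all 11767 genes at each time, with -1.91 at 6 h and -2.18 at 24 h. It passed the filter through DMSO groups alone, so its low place among the genes kept is in part fixed by that. In HBL1, DHL6 and U2932 its R406 and DMSO arrays were as follows or as given further below. In HBL1 at 6 h EGR2 measured 3.88, 3.77 and 3.66 in R406, against 8.14, 8.21 and 8.14 in DMSO. In DHL6 at 24 h it measured 3.23, 3.39 and 3.53 in R406, against 6.76, 6.98 and 6.96 in DMSO. The groups were far apart in both lines, and every R406 array was below the filter level. The log2 change in HBL1 at 6 h was -4.39 ± 0.18 (SE, adjusted p = 3.94e-28), a factor of 21.0. In LY7 at 6 h EGR2 measured 3.09, 3.07 and 3.47 in R406, against 2.91, 3.44 and 3.27 in DMSO. These values overlapped, and both were as low as the R406 level in HBL1. The change in LY7 was -0.0032 with a 95% interval of -0.36 to 0.35 (adjusted p = 0.991).

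EGR2 also fell in DHL6 and U2932 at both times. In DHL6 the changes were -2.73 and -3.51 at 6 and 24 h (adjusted p = 2.14e-19 and 1.81e-24). In U2932 the arrays read 3.64, 3.75 and 4.13 in R406 at 6 h, against 5.83, 6.83 and 6.68 in DMSO, and 3.83, 3.56 and 3.61 in R406 at 24 h, against 7.43, 7.53 and 7.46 in DMSO. DMSO replicate A at 6 h was the lowest DMSO array, yet the groups stayed apart. The changes were -2.61 (adjusted p = 7.56e-18) and -3.80 (adjusted p = 3.19e-25). In HBL1 at 24 h the change was -3.79 (adjusted p = 2.17e-25). In DHL4 it was 0.18 (interval -0.18 to 0.54) at 6 h and 0.04 (interval -0.32 to 0.39) at 24 h.

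EGR3, a close relative of EGR2 and like it a target of calcium and NFAT signals in lymphocytes, showed the same lines moving. In HBL1 at 24 h it measured 4.92, 4.96 and 4.96 in R406, against 8.00, 8.31 and 8.05 in DMSO. In LY7 at 24 h it measured 4.55, 4.75 and 4.50 in R406, against 4.98, 4.40 and 4.57 in DMSO. The R406 arrays were far below the DMSO arrays in HBL1, and the groups overlapped in LY7. In HBL1 EGR3 changed by -2.67 and -3.17 at 6 and 24 h (SE 0.13 each, adjusted p = 4.46e-24 and 1.03e-27). In U2932 they were -1.72 and -1.89 (adjusted p = 6.01e-16 and 7.94e-18) and in DHL6 -1.17 and -1.51 (adjusted p = 8.19e-11 and 6.40e-15). In DHL4 and LY7 they lay between -0.13 and -0.05 (lowest adjusted p = 0.432).

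EGR1, the founding member of the family and a common read-out of ERK activity, had its largest falls in HBL1. In HBL1 at 24 h it measured 5.27, 5.18 and 5.13 in R406, against 8.13, 8.42 and 8.35 in DMSO. In LY7 at 24 h it measured 4.83, 4.91 and 5.03 in R406, against 4.89, 4.88 and 4.91 in DMSO. The groups were apart in HBL1 and overlapped in LY7. In HBL1 EGR1 changed by -2.14 and -3.11 at 6 and 24 h (SE 0.085 each, adjusted p = 2.48e-28 and 5.85e-36). In U2932 EGR1 changed by -0.99 and -0.76 (adjusted p = 4.58e-14 and 1.25e-10), although its DMSO level was only 5.89 ± 0.077 at 6 h and 5.80 ± 0.14 at 24 h (SD, n = 3 each). In DHL6 its change was -0.23 at 6 h (adjusted p = 0.0237). At 24 h in that line it was -1.50 (adjusted p = 2.86e-22). The 6 h call in DHL6 was lost with cyclic loess (adjusted p = 0.0541) and without DMSO replicate A (-0.16, adjusted p = 0.219) or R406 replicate A (-0.21, adjusted p = 0.0909). In DHL4 EGR1 changed by 0.04 and 0.11 (adjusted p = 0.740 and 0.249), and in LY7 by -0.07 and 0.03 (adjusted p = 0.517 and 0.767).

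The sizes of the EGR falls are uncertain, since the R406 means of these genes lay below 5.88 in nearly every case. The exceptions were EGR1 in DHL6 at 6 h (5.91 ± 0.051) and EGR3 in HBL1 at 6 h (6.17 ± 0.31) (SD, n = 3 each). In DHL4 and LY7 the EGR genes were below it in all groups. Some falls that started below that level were called in other comparisons. How far the low level hides a fall in DHL4 and LY7 was not tested.

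**Figure D3:**
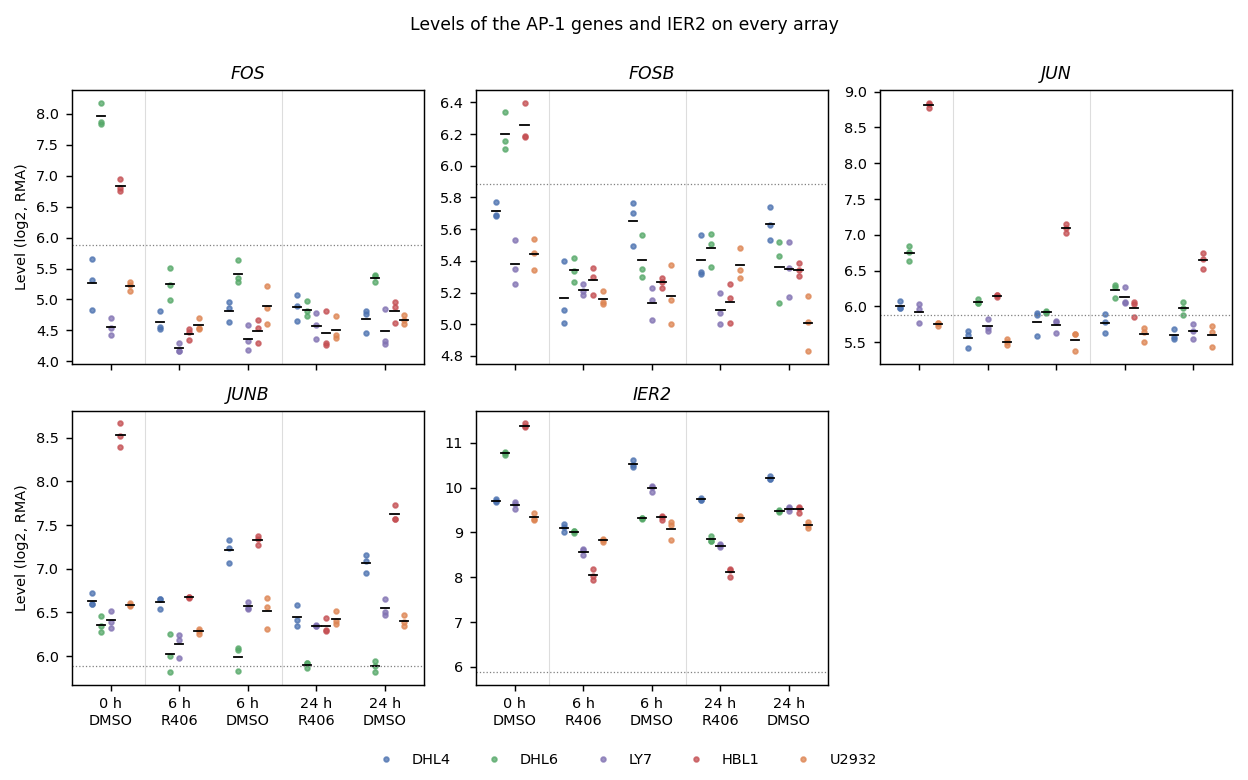
Levels of FOS, FOSB, JUN, JUNB and IER2 (log2, RMA) on every array, with the time and treatment on the horizontal axis, coloured by line, a bar at each group mean and a dotted line at the filter level of 5.88. IER2 in DHL4 lies between 9.02 and 9.18 in R406 at 6 h and between 10.45 and 10.62 in DMSO, and FOS lies below the dotted line in all groups except HBL1 and DHL6 at 0 h.

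The FOS genes of AP-1 changed little with R406. FOS, the partner of JUN proteins that gave the family its name, was called lower in 1 of 10 comparisons, DHL6 at 24 h, where it measured 4.98, 4.81 and 4.73 in R406, against 5.27, 5.39 and 5.37 in DMSO. These groups did not overlap, and the change was -0.51 ± 0.16 (SE, adjusted p = 0.00476). In HBL1 at 6 h FOS measured 4.34, 4.53 and 4.47 in R406, against 4.29, 4.53 and 4.66 in DMSO, which overlapped (-0.05, interval -0.37 to 0.27, adjusted p = 0.874). All FOS levels at 6 and 24 h were below 5.88, as were those of FOSB. FOSB, its close homologue, fell in DHL4 at 6 h, with 5.40, 5.01 and 5.09 in R406, against 5.77, 5.49 and 5.70 in DMSO (-0.49 ± 0.10, SE, adjusted p = 2.88e-05). It rose in U2932 at 24 h, with 5.34, 5.48 and 5.29 in R406, against 5.01, 4.83 and 5.18 in DMSO (0.36 ± 0.10, SE, adjusted p = 0.00271). Neither pair of groups overlapped. In HBL1 at 6 h FOSB was 5.36, 5.18 and 5.30 in R406, against 5.29, 5.23 and 5.27 in DMSO, which overlapped (0.02, adjusted p = 0.942). The FOSB changes of -0.23 in DHL4 (adjusted p = 0.0373) and -0.26 in LY7 (adjusted p = 0.0206) at 24 h were called although their groups overlapped. The first was lost with only the line's arrays (adjusted p = 0.0634), with array weights (adjusted p = 0.0520) and when leaving out DMSO replicate A (-0.18) or C (-0.23) or R406 replicate A or C (-0.19 each), with adjusted p up to 0.160. The second was lost without DMSO replicate C (-0.18, adjusted p = 0.172), R406 replicate A (-0.25, adjusted p = 0.0522) or R406 replicate B (-0.22, adjusted p = 0.0930).

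JUN, the main DNA-binding partner in AP-1, fell in HBL1 and had the opposite sign at 24 h in LY7. In HBL1 at 6 h it measured 6.16, 6.12 and 6.15 in R406, against 7.10, 7.15 and 7.02 in DMSO. In LY7 at 24 h it measured 6.27, 6.06 and 6.05 in R406, against 5.66, 5.54 and 5.76 in DMSO. Each pair of groups was apart, with R406 the lower in HBL1 and the higher in LY7. JUN in HBL1 changed at 6 h by -0.94 ± 0.081 (SE, adjusted p = 3.20e-14). At 24 h in HBL1 the value was -0.67 ± 0.081 (adjusted p = 7.68e-10), and the change in LY7 at 24 h was 0.47 ± 0.081 (adjusted p = 1.11e-06). In U2932 at 24 h JUN measured 5.50, 5.69 and 5.63 in R406, against 5.44, 5.65 and 5.73 in DMSO, which overlapped (0.01, interval -0.16 to 0.17, adjusted p = 0.962). The other 2 JUN calls depended on the processing or on single arrays. The change of -0.23 in DHL4 at 6 h (adjusted p = 0.0161) was lost with only the line's arrays (adjusted p = 0.0574) and without DMSO replicate A (-0.17, adjusted p = 0.120), DMSO replicate B (-0.18, adjusted p = 0.101) or R406 replicate B (-0.16, adjusted p = 0.151). The change of 0.25 in DHL6 at 24 h (adjusted p = 0.00658) was lost with cyclic loess (0.17, adjusted p = 0.0838), with array medians subtracted (0.17, adjusted p = 0.0647) and on leaving out DMSO replicate A (0.20, adjusted p = 0.0503).

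JUNB, a JUN protein that can oppose JUN in AP-1, fell in HBL1 and DHL4 at both times and in LY7 at 6 h. In HBL1 at 24 h it measured 6.30, 6.29 and 6.44 in R406, against 7.57, 7.73 and 7.57 in DMSO. In DHL4 at 24 h it measured 6.41, 6.59 and 6.35 in R406, against 6.95, 7.15 and 7.09 in DMSO. In DHL6 at 24 h it measured 5.92, 5.87 and 5.92 in R406, against 5.82, 5.88 and 5.94 in DMSO. R406 arrays were below all DMSO arrays in HBL1 and DHL4 and lay among them in DHL6. In HBL1 JUNB changed by -0.65 and -1.28 at 6 and 24 h (SE 0.082 each, adjusted p = 4.52e-09 and 1.00e-19). JUNB in DHL4 gave -0.59 (adjusted p = 8.07e-09) and -0.62 (adjusted p = 1.74e-09) at the 2 times, and in LY7 at 6 h -0.43 (adjusted p = 1.04e-05). In DHL6 they were 0.03 (interval -0.14 to 0.19) at 6 h and 0.02 (interval -0.14 to 0.18) at 24 h. The call in U2932 at 6 h (-0.23, adjusted p = 0.0291) was lost with medians subtracted (adjusted p = 0.0640), with cyclic loess (adjusted p = 0.0508) and on leaving out DMSO replicate A (-0.20, adjusted p = 0.111) or B (-0.15, adjusted p = 0.210) or R406 replicate B (-0.22, adjusted p = 0.0822) or C (-0.23, adjusted p = 0.0672). The call in LY7 at 24 h (-0.20, adjusted p = 0.0328) was lost with cyclic loess (adjusted p = 0.0577), with no filter (adjusted p = 0.0516) and without DMSO replicate C (-0.14, adjusted p = 0.185) or any R406 array (-0.20 each, adjusted p up to 0.0671).

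IER2, a nuclear regulator induced with the early response, was the one gene of the 10 called lower in all 5 lines at 6 h. In DHL4 at 6 h it measured 9.02, 9.12 and 9.18 in R406, against 10.51, 10.62 and 10.45 in DMSO. In LY7 at 6 h it measured 8.62, 8.49 and 8.60 in R406, against 9.89, 10.03 and 10.02 in DMSO. R406 arrays were more than 1 log2 unit below every DMSO array in both lines, in which no EGR gene passed the test. The changes were -1.42 ± 0.061 (SE, adjusted p = 1.14e-27) in DHL4, -1.41 ± 0.061 (adjusted p = 3.26e-27) in LY7 and -1.28 ± 0.061 (adjusted p = 8.46e-25) in HBL1. In DHL6 and U2932 at 6 h the changes were -0.30 and -0.25 (adjusted p = 6.54e-05 and 0.00113), and in U2932 the groups overlapped through DMSO replicate A.

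At 24 h IER2 was still lower in HBL1 (-1.40, adjusted p = 9.86e-27), LY7 (-0.82, adjusted p = 1.34e-17), DHL6 (-0.63, adjusted p = 2.29e-13) and DHL4 (-0.47, adjusted p = 1.05e-09). In U2932 it measured 9.30, 9.30 and 9.37 in R406 at 24 h, against 9.09, 9.16 and 9.22 in DMSO, so R406 was the higher by 0.17 ± 0.061 (SE, adjusted p = 0.0263). That call was lost with medians subtracted (0.13, adjusted p = 0.113), with only the line's arrays (adjusted p = 0.151) and without DMSO replicate A (0.13, adjusted p = 0.137), DMSO replicate B (0.17, adjusted p = 0.0564) or R406 replicate C (0.14, adjusted p = 0.110). The change in DHL4 at 24 h ranged from -0.55 to -0.20 over the alternatives tried and stayed past the threshold, with the smallest size under cyclic loess. All IER2 levels were well above 5.88, so its falls do not run into the low end of the scale.

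The NR4A receptors differed from each other in their response. NR4A3 fell in the lines where the EGR genes fell. In HBL1 at 6 h it measured 4.69, 4.88 and 4.76 in R406, against 5.88, 5.60 and 5.89 in DMSO. In U2932 at 6 h it measured 4.25, 4.20 and 4.24 in R406, against 4.99, 4.96 and 4.75 in DMSO. In DHL4 at 6 h it measured 4.18, 4.11 and 4.35 in R406, against 4.24, 4.20 and 4.25 in DMSO. The groups were apart in HBL1 and U2932 and overlapped in DHL4. The changes at 6 h were -1.01 ± 0.080 (SE, adjusted p = 1.02e-15) in HBL1, -0.67 (adjusted p = 1.43e-09) in U2932 and -0.33 (adjusted p = 0.000521) in DHL6. At 24 h they were -0.94 (adjusted p = 5.54e-15) in HBL1 and -0.41 (adjusted p = 2.76e-05) in U2932, while DHL6 (-0.15, adjusted p = 0.0963) did not pass. NR4A3 means at 6 and 24 h were all below 5.88, so these sizes are uncertain.

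NR4A1 had small changes, between -0.34 and 0.18 on the log2 scale over the 10 comparisons. In DHL6 at 6 h it measured 6.62, 6.69 and 6.67 in R406, against 7.12, 6.92 and 6.96 in DMSO, which did not overlap (-0.34 ± 0.072, SE, adjusted p = 8.99e-05). In HBL1 at 24 h it measured 6.44, 6.62 and 6.51 in R406, against 6.81, 6.82 and 6.87 in DMSO, which did not overlap (-0.31, adjusted p = 0.000278). In LY7 at 24 h it measured 6.73, 6.46 and 6.66 in R406, against 6.51, 6.62 and 6.58 in DMSO, which overlapped (0.04, interval -0.10 to 0.19, adjusted p = 0.626). The remaining 3 calls were each lost under some alternatives. The change of -0.17 in DHL4 at 6 h (adjusted p = 0.0442) was lost with medians subtracted (-0.14), with no filter, with only the line's arrays, and without DMSO replicate A (-0.16) or C (-0.16) or R406 replicate A (-0.17) or C (-0.12), with adjusted p up to 0.215. The change of -0.23 in U2932 at 6 h (adjusted p = 0.0103) was lost with array weights (-0.16) and without DMSO replicate A (-0.14) or R406 replicate B or C (-0.21 each), with adjusted p up to 0.202. The change of 0.18 in DHL4 at 24 h (adjusted p = 0.0264) was lost with medians subtracted (0.10), with array weights (0.16) and without DMSO replicate A (0.11), DMSO replicate B (0.17) or R406 replicate A (0.13), with adjusted p up to 0.201.

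Averaged over the 5 lines taken as fixed, 9 of the 10 genes were called lower at 6 h, where 29.1% of all genes were, and 6 at 24 h, where 39.9% of all genes were. At 6 h the averages were -1.91 for EGR2, -1.16 for EGR3, -0.93 for IER2, -0.68 for EGR1, -0.40 for NR4A3, -0.38 for JUNB, -0.21 for JUN, -0.21 for NR4A1 and -0.18 for FOS, and FOSB (-0.10, adjusted p = 0.0586) did not pass. The FOS call (adjusted p = 0.0278) was lost with cyclic loess (-0.14, adjusted p = 0.0744), with array weights (-0.13, adjusted p = 0.0970) and without any of 5 arrays at 6 h, DHL6 DMSO replicate A, DHL6 R406 replicate A, LY7 DMSO replicate C, HBL1 DMSO replicate C or U2932 DMSO replicate A (-0.14 to -0.16, adjusted p up to 0.0730). At 24 h EGR2 (-2.18), EGR3 (-1.34), EGR1 (-1.04), IER2 (-0.63), JUNB (-0.41) and NR4A3 (-0.28) were called. With the 5 lines as replicates, limma called 0 of the 10 at either time, where it called 32 of all 11767 genes at 6 h and 0 at 24 h. At an unadjusted p under 0.05 there were 7 of the genes at 6 h and 3 at 24 h (EGR2, EGR3 and IER2). The share of all genes at that unadjusted p was not counted, so these numbers do not set the 10 genes apart. The responses differed among the lines for 8 of the 10 genes at 6 h by the moderated F-test, where 63.3% of all genes differed, and for all 10 at 24 h, where 82.7% did. FOS (adjusted p = 0.863) and NR4A1 (adjusted p = 0.318) did not pass at 6 h. These shares are high among all genes, so the counts set the 10 genes little apart.

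The response was then compared between the times, and 15 of 50 pairs of gene and line differed, where 35.8% of all pairs did, so the genes described here were not set apart by this count. EGR1 in DHL6 changed by a further -1.27 ± 0.12 (SE) between 6 and 24 h (adjusted p = 1.46e-12), and in HBL1 by -0.96 (adjusted p = 7.03e-09). At 6 and 24 h its R406 means were 5.91 and 5.70 in DHL6, against DMSO means of 6.14 and 7.21. In HBL1 its R406 means were 5.41 and 5.20, against DMSO means of 7.55 and 8.30. EGR2 in U2932 gave -1.20 ± 0.25 (SE, adjusted p = 0.000301), with R406 means of 3.84 and 3.67, against DMSO means of 6.45 and 7.47. In each of these cases the R406 mean moved less between the times than the DMSO mean. The part of the low end of the scale in these differences was not tested. IER2 went the other way in DHL4 (0.95 ± 0.087, SE, adjusted p = 5.39e-14), LY7 (0.59, adjusted p = 1.29e-07) and U2932 (0.42, adjusted p = 0.000254), where the response at 24 h was the less negative or had turned. Averaged over the lines, 2 of the 10 genes had a lower response at 24 h than at 6 h, EGR1 (-0.36) and EGR2 (-0.27), where 36.1% of all genes did, and 4 had a higher one, IER2 (0.30), JUN (0.26), NR4A1 (0.19) and NR4A3 (0.13), where 22.6% of all genes did. The EGR2 call (adjusted p = 0.0352) was lost under array weights (-0.20, adjusted p = 0.0830) and on leaving out single arrays, most so without U2932 DMSO replicate A at 6 h (-0.21, adjusted p = 0.0733). The NR4A3 call (adjusted p = 0.0267) was lost with cyclic loess (0.05, adjusted p = 0.441), with medians subtracted (0.08, adjusted p = 0.147) and without HBL1 DMSO replicate A at 24 h (0.11, adjusted p = 0.0513).

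In DMSO alone the same genes moved with time, mostly downward, and most in the lines where they started high. The 0 h arrays enter both the start and the change, so a larger fall from a higher start is in part built in. The changes at 6 and 24 h share the 0 h arrays, and the DMSO arrays at 6 and 24 h are also those set against R406, so these results are not independent of the R406 responses. All 10 genes were lower in DHL6 and in HBL1 at both times. The shares of all genes that were lower were 12.7% and 6.75% in DHL6 and 7.47% and 8.88% in HBL1. In U2932, 6 were lower at 6 h (14.9%) and 5 at 24 h (7.76%). In DHL4, 4 were lower at each time (15.1% and 12.9%) and 2, JUNB and IER2, were higher (16.9% and 15.5%). In LY7, IER2 was higher at 6 h (14.3%) and JUN was lower at 24 h (8.79%). Over the 5 lines this made 30 of 50 pairs lower and 3 higher at 6 h, where 11.6% and 14.5% of all pairs were, and 30 lower and 2 higher at 24 h, where 9.01% and 13.5% of all pairs were. FOS, FOSB and NR4A3 passed the filter through the 0 h groups of DHL6 and HBL1 alone, so their falls in those lines are in part fixed by it. Without the filter the counts were 27 lower and 3 higher at 6 h and 28 lower and 2 higher at 24 h. The beta-actin difference between probe sets moved by up to 0.37, in U2932 at 6 h, and its part was not tested. The 28S ribosomal RNA 5′ probe set moved by 0.85 at 6 h and 0.49 at 24 h in DHL4, the line in which JUNB and IER2 were higher, and by -0.39 to 0.43 in the other lines, and its part was not tested either. The median change of the 10 genes was -1.79 in DHL6 and -1.89 in HBL1 at 6 h, where the median of all genes was 0.01 in each.

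**Figure D4:**
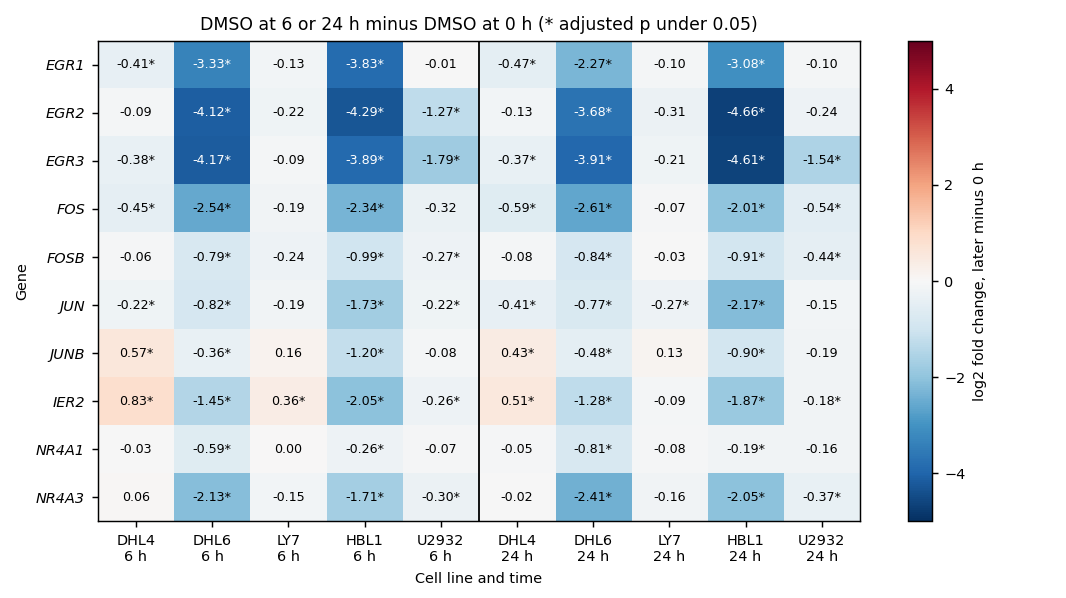
The log2 change of each gene in DMSO at 6 or 24 h minus DMSO at 0 h of the same line, by colour and number, with genes in rows and lines in columns at 6 h on the left and 24 h on the right. Asterisks mark an adjusted p under 0.05. All cells of DHL6 and HBL1 are below 0, and JUNB and IER2 in DHL4 are above 0.

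EGR3 had the lowest average change of all genes in DMSO, -2.07 at 6 h and -2.13 at 24 h. In HBL1 it measured 8.80, 8.99 and 8.73 in DMSO at 6 h, against 12.79, 12.74 and 12.67 at 0 h. In DHL6 it measured 5.86, 5.90 and 6.27 in DMSO at 6 h, against 10.22, 10.33 and 9.99 at 0 h. The times were far apart in both lines. The changes were -3.89 ± 0.13 (SE, adjusted p = 1.57e-31) in HBL1 and -4.17 ± 0.13 (adjusted p = 8.05e-33) in DHL6. EGR2 changed at 6 h by -4.29 (adjusted p = 1.92e-27) in HBL1 and -4.12 (adjusted p = 9.28e-27) in DHL6, and EGR1 by -3.83 (adjusted p = 3.19e-40) and -3.33 (adjusted p = 4.48e-37). In U2932 EGR2 gave -1.27 and -0.24 at 6 and 24 h (adjusted p = 1.05e-07 and 0.421), EGR3 by -1.79 and -1.54 (adjusted p = 2.58e-16 and 1.61e-13), and EGR1 by -0.01 and -0.10 (adjusted p = 0.928 and 0.474). In DHL4 EGR1 changed by -0.41 and -0.47 (adjusted p = 0.000103 and 1.22e-05). The EGR3 changes of -0.38 and -0.37 in DHL4 (adjusted p = 0.0204 and 0.0258) were each lost without single arrays. At 6 h these were DMSO 0 h replicate B or C and DMSO 6 h replicate B or C (-0.34 to -0.37, adjusted p up to 0.0842), and at 24 h they were DMSO 0 h replicate B or C and DMSO 24 h replicate A or C (-0.35 to -0.38, adjusted p up to 0.0793).

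FOS fell in DMSO with time in DHL6 and HBL1. In DHL6 it measured 5.63, 5.34 and 5.28 in DMSO at 6 h, against 7.87, 7.83 and 8.18 at 0 h. In HBL1 it measured 4.29, 4.53 and 4.66 in DMSO at 6 h, against 6.75, 6.95 and 6.80 at 0 h. The times did not overlap. The changes were -2.54 ± 0.16 (SE, adjusted p = 1.16e-19) and -2.34 ± 0.16 (adjusted p = 5.45e-18). FOS was thus already low in these lines in DMSO at 6 h, and how far this hides a further fall in R406 was not tested. FOSB changed by -0.79 in DHL6 and -0.99 in HBL1 at 6 h (adjusted p = 4.55e-09 and 9.77e-12). JUN changed by -1.73 in HBL1 (adjusted p = 7.93e-25) and -0.82 in DHL6 (adjusted p = 3.69e-12), and JUNB by -1.20 in HBL1 (adjusted p = 6.04e-18) and -0.36 in DHL6 (adjusted p = 0.000380). NR4A3 changed by -2.13 in DHL6 and -1.71 in HBL1 (adjusted p = 9.71e-30 and 4.00e-25), and NR4A1 by -0.59 in DHL6 (adjusted p = 1.79e-09). For FOS, FOSB and NR4A3 the 0 h groups of these lines alone passed the filter. Their falls there are thus in part fixed by it, and their p-values carry that limit.

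IER2 and JUNB went the other way in DHL4. IER2 in DHL4 measured 10.51, 10.62 and 10.45 in DMSO at 6 h, against 9.68, 9.69 and 9.74 at 0 h. JUNB in DHL4 measured 7.06, 7.33 and 7.24 in DMSO at 6 h, against 6.72, 6.59 and 6.59 at 0 h. Every 6 h array was above every 0 h array for both genes. IER2 rose by 0.83 ± 0.061 (SE) and 0.51 at the 2 times (adjusted p = 6.67e-17 and 8.99e-10), and JUNB by 0.57 ± 0.082 (SE) and 0.43 (adjusted p = 6.74e-08 and 2.93e-05). In LY7 IER2 rose by 0.36 (adjusted p = 6.84e-06) at 6 h, with -0.09 (adjusted p = 0.328) at 24 h. Set against 0 h, R406 at 6 h left IER2 lower in DHL4 (-0.59) and LY7 (-1.05), and left JUNB in DHL4 at -0.02 (adjusted p = 0.849). The fall of JUNB in DHL4 relative to DMSO at 6 h was therefore of about the size of its rise in DMSO.

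The changes in DMSO over time differed among the lines for all 10 genes at both times, where 51.3% of all genes did so at 6 h and 38.6% at 24 h. Averaged over the lines all 10 were lower at both times, where 18.4% of all genes were lower at 6 h and 16.8% at 24 h. For FOS, FOSB and NR4A3 this is in part fixed by the filter, which they passed through DHL6 and HBL1 at 0 h alone. Without the filter all 10 were again lower at both times. With the lines as replicates 0 of the 10 were called, with 7 at 6 h and 8 at 24 h at an unadjusted p under 0.05. Of the DMSO calls not yet described, those of FOS (both times) and JUN (6 h) in DHL4, NR4A1 (both times) in HBL1, FOSB and JUN (6 h) and IER2 (both times) in U2932, and JUN (24 h) in LY7 were each lost under at least 1 alternative, with adjusted p up to 0.362. The single array that mattered most for FOS in DHL4 was DMSO 0 h replicate A, without which the change was -0.25 at 6 h (adjusted p = 0.297) and -0.40 at 24 h (adjusted p = 0.0789). For JUN in DHL4 it was DMSO 6 h replicate C (-0.12, adjusted p = 0.362). For NR4A1 in HBL1 it was DMSO 0 h replicate B (-0.20 at 6 h, adjusted p = 0.0753, and -0.13 at 24 h, adjusted p = 0.301). In U2932 at 6 h it was DMSO 6 h replicate B for FOSB (-0.18, adjusted p = 0.234) and DMSO 6 h replicate A for JUN (-0.14, adjusted p = 0.305) and IER2 (-0.13, adjusted p = 0.0932). For IER2 in U2932 at 24 h it was DMSO 0 h replicate C (-0.13, adjusted p = 0.205), and for JUN in LY7 it was DMSO 24 h replicate B (-0.22, adjusted p = 0.0859).

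The lines lay closer together in the EGR genes under R406, and at 6 h in the other genes described here as well. For EGR2 the distance between the highest and the lowest line mean was 9.13 in DMSO at 0 h. At 6 h it was 0.63 in R406, against 4.95 in DMSO, and at 24 h it was 0.78 in R406, against 4.67 in DMSO. For EGR1 it was 1.12 in R406 at 6 h, against 2.69 in DMSO, and 0.78 in R406 at 24 h, against 3.41 in DMSO. For EGR3 it was 1.56 in R406 at 6 h, against 4.08 in DMSO, and 0.35 in R406 at 24 h, against 3.47 in DMSO. Among the other genes the distance at 6 h ranged in how much smaller it was, from NR4A3 (0.65 in R406, against 1.68 in DMSO) to FOS (1.04, against 1.05). These distances are descriptions with no test and were not taken over all genes, and most of the R406 means of the EGR genes lie near the low end of the scale. IER2 did not follow this at 24 h, with 1.63 in R406, against 1.06 in DMSO, and nor did NR4A1, with 0.65 in R406, against 0.42 in DMSO.

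**Figure D5:**
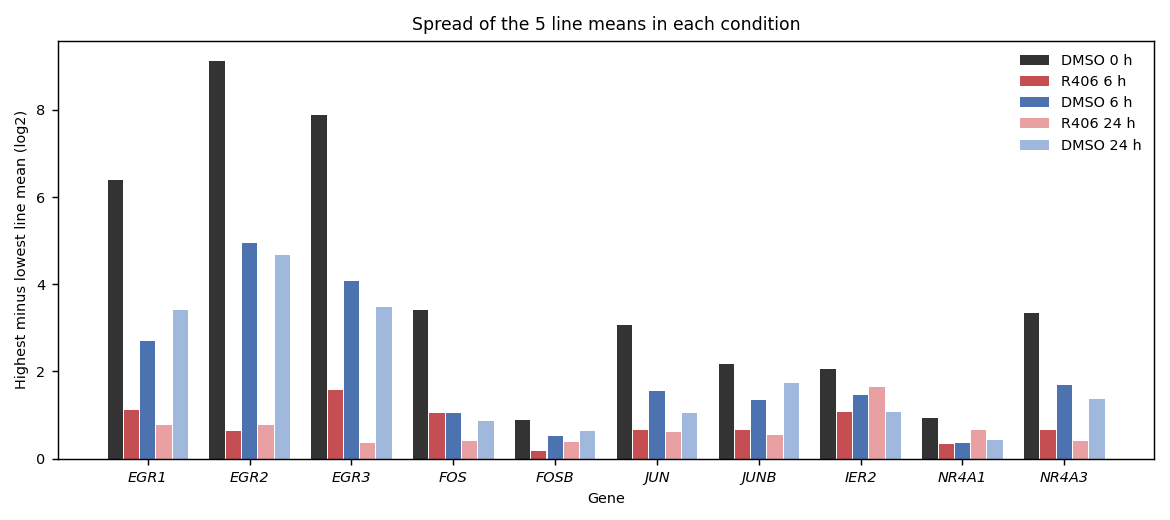
Distance between the highest and the lowest of the 5 line means (log2) for each gene, as bars from 0, in DMSO at 0 h, R406 at 6 h, DMSO at 6 h, R406 at 24 h and DMSO at 24 h. For EGR2 the bars are 9.13, 0.63, 4.95, 0.78 and 4.67, and IER2 and NR4A1 at 24 h are the pairs in which R406 is the longer bar.

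Likeness among the genes was described by the Pearson correlation of their 10 R406 responses, over 5 lines and 2 times that share no arrays, although the 2 responses of a line share its cells. EGR1 and EGR3 correlated at 0.933, and EGR3 was the gene most like EGR1 among 11766 others. EGR3 correlated with NR4A3 at 0.940 and with EGR2 at 0.930. NR4A3 was in place 8 among the genes most like EGR3, and EGR3 in place 16 among those most like EGR2. EGR1 correlated with EGR2 at 0.796, place 94 for EGR1. A gene outside the 10, ENSG00000101104, was the most like EGR3 (0.973). IER2 correlated with JUNB at 0.705 and with EGR2 at -0.24. Among the other genes tested, the most like EGR2 was ENSG00000087074 (0.973), which changed by -0.47 in HBL1, -0.29 in DHL6 and -0.26 in U2932 at 6 h (adjusted p = 1.86e-06, 0.00136 and 0.00665) and did not pass in DHL4 or LY7 (-0.09 and 0.02). The next was ENSG00000136870 (0.961), which rose in DHL4 (0.52) and LY7 (0.47) at 6 h (adjusted p = 2.72e-11 and 7.85e-10) and had a change of 0.01 in HBL1. Correlations over so few points are descriptions, and the files give these identifiers no name.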

How the data were processed

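RNA of 5 lymphoma lines was hybridised to Affymetrix HT HG-U133 Plus arrays, 3 per group. The deposited table holds log2 values, and per the submitters' processing notes RMA made them, with no version given in the sources used here. RMA makes array distributions equal, so a shift of most transcripts is not visible. Of 19598 rows, 62 control rows stayed out of tests, and 0 columns of samples were left unmapped. The filter kept 11767 genes and removed 7769. Contrasts of the 25 group means (50 residual degrees of freedom) were tested two-sided with limma 3.58.1 (lmFit, eBayes) in R 4.3.3, Benjamini-Hochberg adjusted within each contrast, and checked on simulated data. Promoter motifs were searched by exact letters on both strands.

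The members and lists were chosen with earlier results of these data known. Every array's value is given for each gene in the line and time of its largest and of a small response, and those in other comparisons were added after values were seen. The gene table given pairs no symbols with the identifiers, so further lists fixed by symbol (related early genes, cell type markers, SYK) were not analysed here. Arrays with the same letter did not deviate together (30 pairs, correlation -0.27 to 0.24, 6 over 0.1), so letters were not used as pairs. Alternatives were cyclic loess, medians subtracted, no filter or a stricter one, a trended robust prior, array weights, only the line's arrays, the letter as a block, each array left out, DMSO at 0 h as control, lines as replicates and a 2-fold threshold.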

Additional observations from a re-analysis of the deposited data

Results flagged for a closer look

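The R406 response differed among the lines for most of the genes by limma's moderated F-test, and the distance between the highest and the lowest of the 5 lines' log2 changes gives its size. At 6 h that distance was 2.18 for EGR1, 4.57 for EGR2, 2.57 for EGR3, 0.57 for FOSB, 1.09 for JUN, 0.68 for JUNB, 1.17 for IER2 and 1.03 for NR4A3. At 24 h it was 3.22 for EGR1, 3.98 for EGR2, 3.13 for EGR3, 0.70 for FOS, 0.63 for FOSB, 1.14 for JUN, 1.30 for JUNB, 1.57 for IER2, 0.49 for NR4A1 and 1.06 for NR4A3. HBL1 was the lowest line for all 3 EGR genes at 6 h, and DHL4 for IER2.

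The change in DMSO differed among the lines for all 10 genes by the same test. At 6 h the distance was 3.81 for EGR1, 4.20 for EGR2, 4.08 for EGR3, 2.35 for FOS, 0.94 for FOSB, 1.54 for JUN, 1.77 for JUNB, 2.87 for IER2, 0.59 for NR4A1 and 2.19 for NR4A3. At 24 h it was 2.97 for EGR1, 4.53 for EGR2, 4.41 for EGR3, 2.55 for FOS, 0.88 for FOSB, 2.02 for JUN, 1.33 for JUNB, 2.38 for IER2, 0.76 for NR4A1 and 2.39 for NR4A3.

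The R406 response at 24 h differed from that at 6 h in 15 of 50 tests of a gene in a line, 8 of them positive and 7 negative. EGR1 differed by -1.27 in DHL6, -0.96 in HBL1 and -0.36 on average. EGR2 differed by -0.78 in DHL6, -1.20 in U2932 and -0.27 on average, and EGR3 by -0.51 in HBL1. FOSB differed by 0.38 in U2932, JUNB by -0.63 in HBL1, and JUN by 0.40 in DHL4, 0.49 in LY7 and 0.26 on average. IER2 differed by 0.95 in DHL4, -0.34 in DHL6, 0.59 in LY7, 0.42 in U2932 and 0.30 on average. NR4A1 differed by 0.34 in DHL4, 0.43 in DHL6 and 0.19 on average, and NR4A3 by 0.13 on average. The calls of EGR3 in HBL1 and FOSB in U2932 were lost under several alternatives (adjusted p up to 0.197 and 0.182).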

How the results depend on the processing

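Of 176 called results of the 10 genes, 148 stayed past the threshold under every alternative other than a 2-fold threshold, DMSO at 0 h as control and lines as replicates, and no result called in either fit turned its direction under those alternatives. FOSB, NR4A1 and NR4A3 were removed by the stricter filter, so their results could not be lost under it. Among the 7 genes it left, 20 pairs were lower with R406 at 6 h and 19 at 24 h, and 22 in DMSO at each time. With DMSO at 0 h as control, 41 pairs of gene and line were lower with R406 at 6 h, against 27 with DMSO of the same time. At 24 h 34 were lower and 1 was higher. The share of all genes called with that control was not counted, so these counts do not set the 10 genes apart. By a 2-fold threshold with that control, the genes lower at 6 h were 8 in HBL1 (1.08% of all genes), 6 in DHL6 (1.49%) and 3 in U2932 (0.841%). There were 1 in LY7 (1.15%) and 0 in DHL4 (1.59%). At 24 h they were 9 in HBL1 (1.56%), 6 in DHL6 (2.34%), 2 in U2932 (0.858%), 0 in LY7 (2.48%) and 0 in DHL4 (7.67%). That control also carries the change over time, and it turned the sign of 14 results that were called with either control. At 6 h these were EGR1 in DHL4 (-0.37), JUN and JUNB in DHL6 (-0.68 and -0.34) and FOSB in HBL1 (-0.98). At 24 h they were EGR1, FOS, JUN and IER2 in DHL4 (-0.36, -0.40, -0.24 and 0.041), FOSB, JUN, JUNB and NR4A1 in DHL6 (-0.72, -0.52, -0.46 and -0.72) and FOSB and IER2 in U2932 (-0.073 and -0.0096). With DMSO of the same time as control, a 2-fold threshold left 11 lower at 6 h, 10 lower at 24 h and 0 higher at 24 h. Of all genes, 0.272% to 1.77% per line were lower by that threshold at 6 h and 0.399% to 7.69% at 24 h. With medians subtracted 2 were higher at 24 h, and the cause was not tested. With lines as replicates limma called 0 of the averages lower with R406 at 6 or 24 h and 0 in DMSO at 6 or 24 h, over 5 lines. Of all genes that fit called 32 and 0 with R406 at 6 and 24 h, and 23 and 381 in DMSO. For the average difference between 24 and 6 h, array weights left 1 gene lower and the stricter filter, at 7.87 and with 7 of the genes, left 2 higher.

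Leaving out 1 array at a time gave 25 to 27 pairs lower with R406 at 6 h and 21 to 24 at 24 h, 4 to 6 higher at 24 h, 8 to 10 averages lower at 6 h and 6 to 7 at 24 h. In DMSO it gave 28 to 31 pairs lower at 6 h and 29 to 30 at 24 h, with 10 averages lower throughout, and for the difference between times 1 to 3 averages lower and 3 to 4 higher. The counts of genes that differed among lines stayed at 8, 10, 10 and 10. With the replicate letter as a block, 27 pairs were lower at 6 h and 24 at 24 h, and 1 call was lost, EGR3 between 24 and 6 h in HBL1 (adjusted p = 0.0508). Signals near the low end of the scale limit how far a fall can be measured.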
